A study of Mus musculus with 4 samples.

Results

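Retinoic acid is made from vitamin A and acts inside the nucleus. The genes described here make it, clear it, carry it or respond to it in mouse lung: Aldh1a1, Aldh1a2, Aldh1a3, Cyp26a1, Cyp26b1, Crabp1, Crabp2, Rarb and Stra6, 9 of the 41079 genes in the deposited table. They were listed by their function, and the list was drawn up when the genotype differences of these libraries were already known, Cyp26b1's among them, so their values are given as a description, with no test. The lungs came from female C57BL/6 wild-type (WT) mice and littermates in which Rab44, a large Rab GTPase, had been knocked out by CRISPR/Cas9 (Rab44-KO), aged 8 to 14 weeks. Under OVA-induced conditions mice received 100 µg of ovalbumin (OVA) with alum by intraperitoneal injection on days 0, 7 and 14 and then 100 µg of OVA in 50 µL intranasally on days 17 to 20, and lungs were taken on day 21. The mice under normal conditions carry the label of no treatment, although the protocol text that all samples share also names a PBS challenge. Each of the 4 conditions was 1 RNA-seq library of whole lung, and the sources used here do not say how many mice a library holds. No difference below therefore has a replicate check, no p-value is given, and every interval is a 95% interval that covers counting error only. The knockout was not restricted to a cell type.

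Retinol is taken up and stored by cells as retinyl ester, released, and oxidised first to retinal and then, by the Aldh1a retinaldehyde dehydrogenases, to retinoic acid. Retinoic acid binds receptors of the Rar family, which sit on DNA with Rxr partners and switch on target genes, and the Cyp26 enzymes, themselves such targets, oxidise it for removal. In the lung this signal is known for its part in airway and alveolar development, in epithelial upkeep and in the homing and tolerance of immune cells.

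The receptor pairs bind direct repeats of a 6-base half-site. The repeat most often tied to retinoic acid has a spacer of 5 bases (DR5), so promoters of the response genes are shown to set Cyp26b1 beside the best known targets. The half-site searched was AGGTCA, or its variant AGTTCA, or the variants written GGGTCA or else as GGTTCA, on both strands, in windows of 250 bases before to 50 bases after each gene's start (RefSeq, GRCm38.p6). A DR5 lay in 32 of all 32851 promoter windows, 0.0974%, and in 2 of the 11 windows of the 7 members that could be matched, those of Rarb and Cyp26a1. Repeats with a spacer of 1 (DR1, in 0.222% of promoters) or 2 (DR2, in 0.268%) lay in 0 of those 11 windows. Aldh1a3 and Crabp2 were not matched. The lines below hold the 100 bases before each start, 5′ to 3′ on the gene's own strand, and capitals mark the half-sites of a DR5.
Rarb (chr14:16575477-16575576, minus strand): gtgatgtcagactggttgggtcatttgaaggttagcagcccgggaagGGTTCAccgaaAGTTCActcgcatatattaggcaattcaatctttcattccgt
Cyp26a1 (chr19:37697708-37697807, plus strand): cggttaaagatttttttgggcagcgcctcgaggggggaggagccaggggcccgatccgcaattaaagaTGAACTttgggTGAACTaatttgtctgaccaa
Cyp26b1 (chr6:84593811-84593910, minus strand): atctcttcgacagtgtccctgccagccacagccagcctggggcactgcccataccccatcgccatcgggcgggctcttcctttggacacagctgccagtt
The repeat of Rarb reads along the gene's strand, and that of Cyp26a1 reads on the opposite strand, so its half-sites appear reversed and complemented. The Cyp26b1 window held none of these letters, which says nothing of elements elsewhere. The RefSeq starts of all 3 windows lie inside the GENCODE spans given below, that of Rarb far inside and the other two close to the edge.

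The 4 libraries held 18112901 to 19910236 counts assigned to genes. Rab44 had 251 counts in WT and 1 in Rab44-KO under normal conditions and 810 in WT and 0 in Rab44-KO after OVA, so the knockout label matched both pairs. Defining lung genes (Sftpc, Sftpb, Ager and Scgb1a1) were present in every library, with a summed level of 31215 to 40984 CPM (counts scaled to library size, with trimmed mean of M-values factors, TMM). Levels are given in CPM within a gene and in TPM, which also divides by transcript length, between genes. Differences are log2 ratios of CPM (log2FC), computed where at least one of both libraries compared held 10 counts or more of the gene, and a gene is called when its log2FC lies beyond 1 in either direction, a 2-fold difference. Under OVA-induced conditions the call split 1617 genes higher to 1413 lower in Rab44-KO (53.4% higher), and with deposited TPM in place of CPM it split 2602 to 777 (77.0%), the median of all genes moving from -0.02 to 0.29. In the OVA response of Rab44-KO lungs 62.6% of called genes were higher (1229 to 734), and 72.8% were with TPM (1287 to 481), where the median moved from -0.01 to 0.11. In the OVA response of WT lungs 63.4% of called genes were higher (1710 to 989), and 53.6% were with TPM (1273 to 1102), where the median moved from 0.00 to -0.16.

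**Figure D1:**
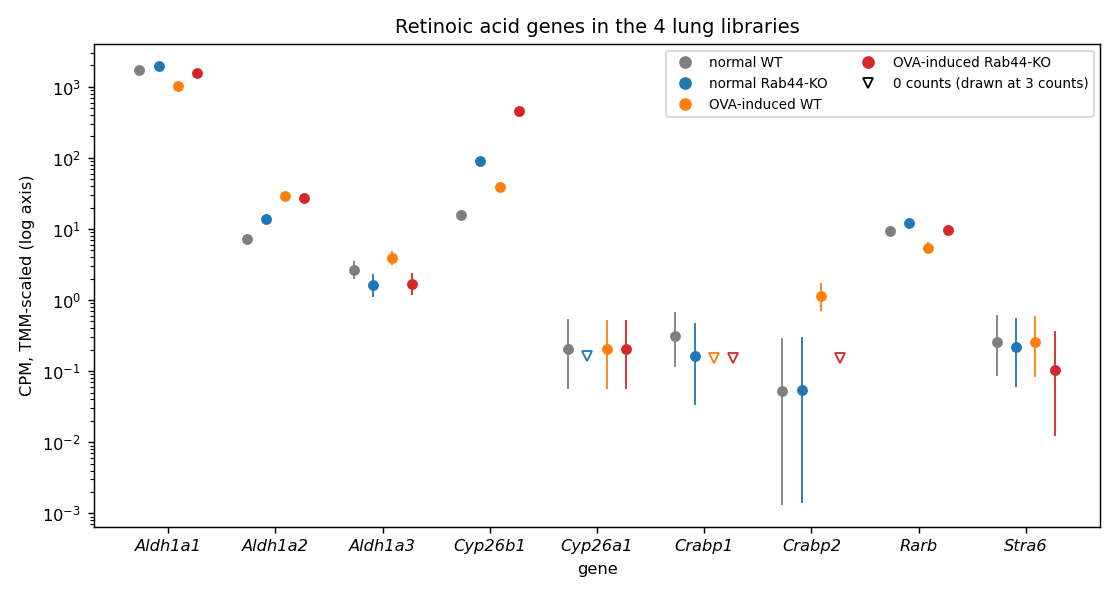
Level of each of the 9 genes in each lung library, in TMM-scaled CPM on a log axis; bars are exact 95% Poisson intervals and open triangles are libraries with 0 counts, drawn at the level of 3 counts. Cyp26b1 spans 15.6 to 463 CPM, and Cyp26a1, Crabp1 and Stra6 lie near or under the level of 3 counts in every library.

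Cyp26b1, a cytochrome P450 that oxidises retinoic acid for its removal, was the member with the largest genotype difference among those with counts to measure one in both conditions. It spans chr6:84571414-84593908 (GRCm38, minus strand, 6 exons). Its counts were 300 in WT and 1671 in Rab44-KO under normal conditions and 758 in WT and 9029 in Rab44-KO after OVA, or 15.6, 91.6, 39.1 and 463 CPM. Where 4 values stand without labels, here and below, they follow that order. Both Rab44-KO libraries lay above both WT libraries, and the OVA-induced library lay above the normal one in each genotype. Rab44-KO exceeded WT by 5.86-fold under normal conditions (log2FC 2.55, 2.37 to 2.73) and by 11.8-fold under OVA-induced conditions (3.56, 3.46 to 3.67). The OVA-induced library exceeded the normal one by 2.50-fold in WT (1.32, 1.13 to 1.52) and by 5.06-fold in Rab44-KO (2.34, 2.26 to 2.41). The OVA response was thus larger in Rab44-KO by 1.01 on the log2 scale (0.81 to 1.22), which could not be tested between single libraries. In bulk lung, a change in how many cells express a gene and a change in RNA per cell cannot be told apart.

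Cyp26b1 ranked high among all genes as well as among the members. Among all genes that passed the count minimum it ranked 48 of 18718 for genotype under normal conditions and 51 of 19259 under OVA-induced conditions. Of 13166 genes that reached 100 counts in one of both libraries, 2 had a larger log2FC under normal conditions, and of 13704 such genes 2 did under OVA-induced conditions. Among genes with that many counts it ranked 500 of 13575 in the OVA response of WT lungs and 74 of 13484 in that of Rab44-KO lungs. Because Cyp26b1 was listed with its genotype difference known, its genotype and OVA ranks are not weighed against each other. Cell types that line vessels or build the interstitium can express Cyp26b1, and the values of their markers are given beside it. Of 8 markers of blood vessel endothelium 0 were called in either genotype comparison, with median log2FC of -0.02 and 0.11, and their summed level was 3393 CPM in WT and 3316 in Rab44-KO under normal conditions and 2670.0 in WT and 3186 in Rab44-KO after OVA. Of 9 markers of alveolar and lipid-storing fibroblasts 0 were called under normal conditions (median -0.16) and 2 were lower under OVA-induced conditions (median -0.16), with summed levels of 5458, 4999.5, 4034 and 3803 CPM. Lymphatic endothelium had 0 of 6 markers called under normal conditions (median 0.04) and 2 of 6 higher under OVA-induced conditions (median 0.97), with summed levels of 509, 549.5, 321 and 585 CPM. The part of these cells in the Cyp26b1 values was not tested. No marker of these lists was at 0 in any library.

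Cyp26a1, a second retinoic acid oxidase (chr19:37697798-37701536, plus strand), had 4 counts in WT and 0 in Rab44-KO under normal conditions and 4 in WT and 4 in Rab44-KO after OVA. These counts cannot show a difference, and a count of 0 allows up to 0.164 CPM in normal Rab44-KO. Cyp26b1 gave 91.8% of the summed Cyp26a1 and Cyp26b1 TPM in WT and 100% in Rab44-KO under normal conditions and 96.6% in WT and 99.7% in Rab44-KO after OVA. The remaining enzyme of the family, Cyp26c1, had 1, 0, 0 and 2 counts and is not in these sums.

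Aldh1a1, a retinaldehyde dehydrogenase that is abundant in lung and also oxidises other aldehydes, was the most abundant member in all 4 libraries. It spans chr19:20492715-20643465 (plus strand, 16 exons). It had 33112 counts in WT and 35461 in Rab44-KO under normal conditions and 19727 in WT and 30081 in Rab44-KO after OVA, or 1725, 1943, 1019 and 1543 CPM. The OVA-induced WT library stood lowest, and the other three lay close together. By TPM it ranked 52, 43, 160 and 49 among all genes in the same order. It was lower after OVA in WT (log2FC -0.76, -0.79 to -0.73) and less so in Rab44-KO (-0.33, -0.35 to -0.31), so that under OVA-induced conditions Rab44-KO held 1.51-fold the WT level (0.60, 0.57 to 0.63). Under normal conditions the genotype difference was 0.17 (0.15 to 0.19). These intervals are narrow because the counts are high, and say nothing of the spread between mice. Its direction held under every scaling, and under OVA-induced conditions the genotype log2FC ranged from 0.60 to 0.93.

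Club cells are among the lung cells that express Aldh1a1. Of 5 club and airway secretory markers 1 was lower in the OVA response of WT (median -0.86) and 1 in that of Rab44-KO (median -0.44). In OVA-induced Rab44-KO against WT 1 of 5 was higher (median 0.62), and under normal conditions 0 were called (median 0.37). Their summed level was 26085 CPM in WT and 26626 in Rab44-KO under normal conditions and 18157 in WT and 21110.0 in Rab44-KO after OVA, with no marker at 0. The list therefore had the same order of libraries by summed level as Aldh1a1, and its part in the Aldh1a1 values was not tested.

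Aldh1a2, the main retinoic acid making enzyme of mesothelium and of some dendritic cells, was higher after OVA. It spans chr9:71215789-71296243 (plus strand, 14 exons). It had 137 counts in WT and 249 in Rab44-KO under normal conditions and 570 in WT and 538 in Rab44-KO after OVA, or 7.14, 13.6, 29.4 and 27.6 CPM. Both OVA-induced libraries lay above both normal ones, and the genotypes were apart only under normal conditions. The OVA-induced level was 4.12-fold the normal one in WT (log2FC 2.04, 1.77 to 2.32) and 2.02-fold in Rab44-KO (1.02, 0.80 to 1.24). Rab44-KO held 1.91-fold the WT level under normal conditions (0.93, 0.63 to 1.25), just under the call. Under OVA-induced conditions the difference was -0.09 (-0.27 to 0.08), an interval that includes 0, and it took the other sign with TPM (0.23) or with the trend against transcript length removed (0.20). The OVA response was smaller in Rab44-KO by a log2 difference of -1.03 (-1.37 to -0.68).

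Some markers of mesothelium, the cell sheet that covers the lung, had values ordered over the libraries as those of Aldh1a2, and others did not. Msln had 500 counts in WT and 972 in Rab44-KO under normal conditions and 1582 in WT and 1355 in Rab44-KO after OVA. Upk3b had 504, 971, 1308 and 1232 counts in the same order, which is also the order of libraries seen for Aldh1a2. Both genes were higher in Rab44-KO under normal conditions (log2FC 1.03 and 1.02) and higher after OVA in WT (1.65 and 1.36), as Aldh1a2 was. Of the 7 mesothelial markers 3 were higher in normal Rab44-KO (median 0.71), 1 in OVA-induced Rab44-KO (0.11), 5 in the OVA response of WT (1.36) and 2 in that of Rab44-KO (0.38). Their summed level was 279, 328, 402 and 372 CPM, with no marker at 0. Muc16, with 111, 166, 227 and 485 counts, stood above WT in Rab44-KO after OVA (log2FC 1.09), and its OVA response was larger in Rab44-KO (1.45) than in WT (1.02), the opposite of Aldh1a2. Wt1, with 18, 28, 50 and 70 counts, also stood highest in OVA-induced Rab44-KO, and the log2FC of Krt19 and Upk1b stayed within -0.35 and 0.33 in all 4 comparisons. The amount of lung surface in each piece is not known, and its part in the Aldh1a2 values was not tested. Dendritic cell markers moved after OVA in WT, with 6 of 8 higher (median 1.25), and 6 of 8 were lower in OVA-induced Rab44-KO than in WT (median -1.08). The summed level of the dendritic markers was 96.9, 110.0, 146 and 100.4 CPM, with none at 0, and their part in the Aldh1a2 values was not tested.

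**Figure D2:**
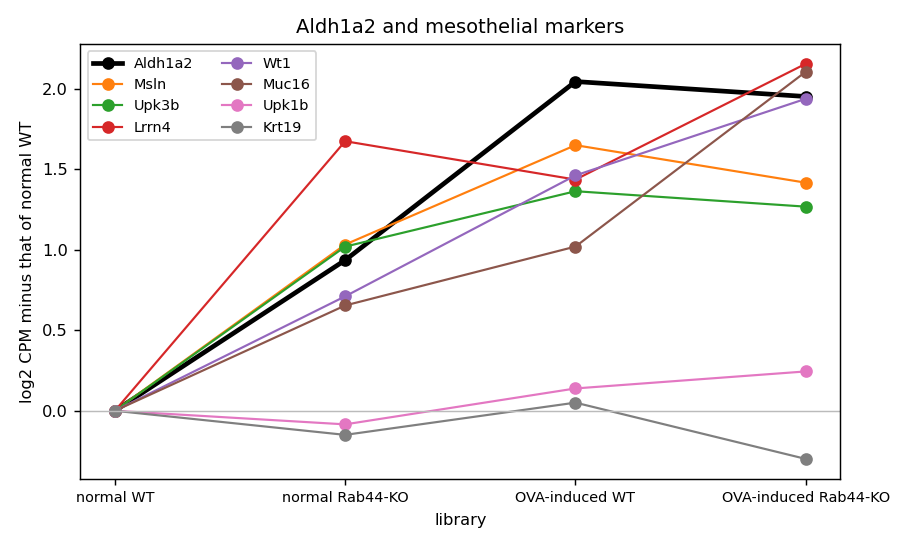
Log2 CPM of Aldh1a2 (thick black line) and of 7 mesothelial markers in the 4 libraries, each relative to normal WT; lines join the libraries only to guide the eye. Aldh1a2 and Msln are above normal WT in normal Rab44-KO and are higher still in both OVA-induced libraries, whereas Krt19 and Upk1b stay close to 0.

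Aldh1a3, the retinaldehyde dehydrogenase of several epithelia, was scarce and was lower in Rab44-KO. It spans chr7:66390890-66427517 (minus strand, 13 exons). It had 51 counts in WT and 30 in Rab44-KO under normal conditions and 76 in WT and 33 in Rab44-KO after OVA, or 2.66, 1.64, 3.92 and 1.69 CPM. Both Rab44-KO libraries lay below both WT libraries. Rab44-KO was 2.32-fold lower under OVA-induced conditions (log2FC -1.21, -1.85 to -0.61) and lower by a log2FC of -0.69 under normal conditions (-1.39 to -0.01), an upper bound close to 0. With TPM the OVA-induced value was -0.84, and Aldh1a3 was then no longer called. After OVA it was 0.56 in WT (0.03 to 1.10) and 0.04 in Rab44-KO (-0.72 to 0.81). At this depth the OVA responses of the genotypes were not distinguishable (difference -0.52, -1.40 to 0.36).

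On the TPM scale, which allows genes to be compared, the 3 Aldh1a genes summed to 1366 in WT and 1573 in Rab44-KO under normal conditions and 739.8 in WT and 1382 in Rab44-KO after OVA. Aldh1a1 gave 99.3, 99.0, 96.0 and 97.6% of these sums. Cyp26a1 and Cyp26b1 summed to 3.24, 17.8, 6.84 and 98.3 TPM. The summed TPM of the making enzymes was therefore 421, 88.6, 108 and 14.1 times that of these 2 clearing enzymes, lowest in OVA-induced Rab44-KO. These are ratios of transcripts and not of enzyme activity, and Aldh1a1 sets nearly all of the upper term.

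**Figure D3:**
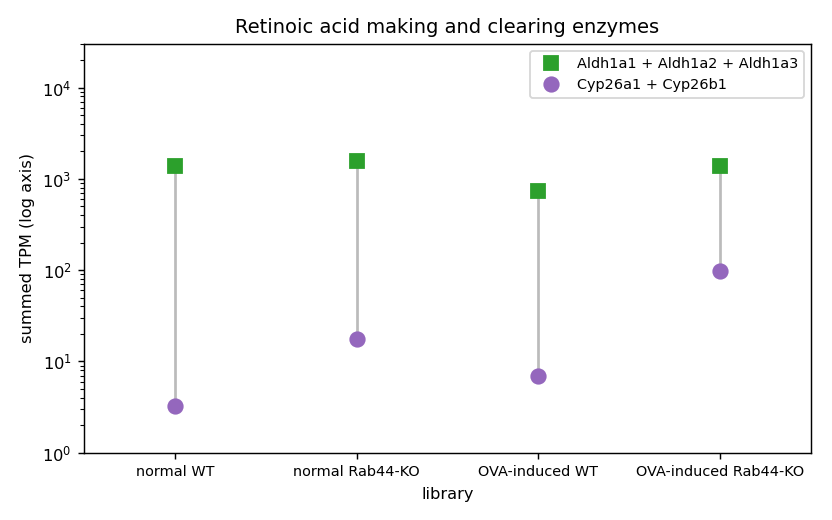
Summed TPM (log axis) of the retinoic acid making enzymes Aldh1a1, Aldh1a2 and Aldh1a3 (green squares) and the clearing enzymes Cyp26a1 and Cyp26b1 (purple circles) in each library; the grey line is the gap between both sums. The gap is widest in normal WT, 421 times, and narrowest in OVA-induced Rab44-KO, 14.1 times.

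Crabp2, a binding protein that carries retinoic acid to the nucleus, was nearly confined to 1 library. It spans chr3:87948666-87953376 (plus strand, 4 exons). It had 1 count in WT and 1 in Rab44-KO under normal conditions and 22 in WT (1.14 CPM) and 0 in Rab44-KO after OVA. Set against a level of 3 counts for the count of 0, it was 7.38-fold lower in Rab44-KO than in WT after OVA. The counting interval, which also covers the error of the 22 counts, reached down to 5.51-fold lower. The OVA response in WT was 21.8-fold, with an interval of 3.53 to 900.1 that reflects the single count in normal WT. Crabp2 passed the count minimum only through OVA-induced WT, so the calls it takes part in could have gone in no other direction. Summed marker levels of several cell types were also highest in that library. Of 7 markers of alternatively activated macrophages 5 were lower in OVA-induced Rab44-KO than in WT (median -2.55), with summed levels of 487, 447, 8134 and 1090.4 CPM. All 5 goblet cell markers were lower (median -3.08), with summed levels of 64.5, 70.8, 1916 and 57.5 CPM, and so were the 5 of 6 eosinophil markers that passed, with summed levels of 21.5, 22.7, 65.6 and 18.6 CPM. Among the markers of these lists, only Epx of the eosinophils was at 0, in every library but OVA-induced WT, so it passed only through the library where it was high and could not have come out higher in Rab44-KO. Which cells held Crabp2 was not tested.

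Crabp1, the carrier that holds retinoic acid in the cytoplasm (chr9:54764748-54773110, plus strand), had 6 counts in WT and 3 in Rab44-KO under normal conditions and 0 in WT and 0 in Rab44-KO after OVA. Stra6, the cell surface receptor that takes up retinol from its blood carrier (chr9:58063788-58153996, plus strand), had 5, 4, 5 and 2 counts in the same order. Neither gene reached 10 counts in any library, so no log2FC was computed. The counting interval of the Crabp1 ratio for OVA in WT, 0 to 0.84, excluded equal levels, though it rests on 6 counts against 0. No other interval of Crabp1 or Stra6 excluded equal levels. Stra6 overlaps Ccdc33 on the other strand, which had 226 to 289 counts.

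Rarb, the retinoic acid receptor whose own gene is a classical target, was highest in normal Rab44-KO and lowest in OVA-induced WT. It spans chr14:16430839-16819156 (minus strand, 8 exons). It had 181 counts in WT and 219 in Rab44-KO under normal conditions and 104 in WT and 191 in Rab44-KO after OVA, or 9.43, 12.0, 5.37 and 9.80 CPM. Rab44-KO lay above WT within each condition, by 0.35 on the log2 scale under normal conditions (0.06 to 0.64) and by 0.87, or 1.82-fold, under OVA-induced conditions (0.52 to 1.23). The OVA-induced value was not called, but it was with TPM (1.17). After OVA Rarb was lower in WT (-0.81, -1.17 to -0.46) and by less in Rab44-KO (-0.29, -0.58 to -0.01), a log2 difference of 0.52 (0.07 to 0.97). Rarb overlaps Top2b on the other strand, which had 2593 to 3480 counts, and the strand setting of the counting was not given in the sources used here, so reads of both genes may not be fully separated at the overlap.

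**Figure D4:**
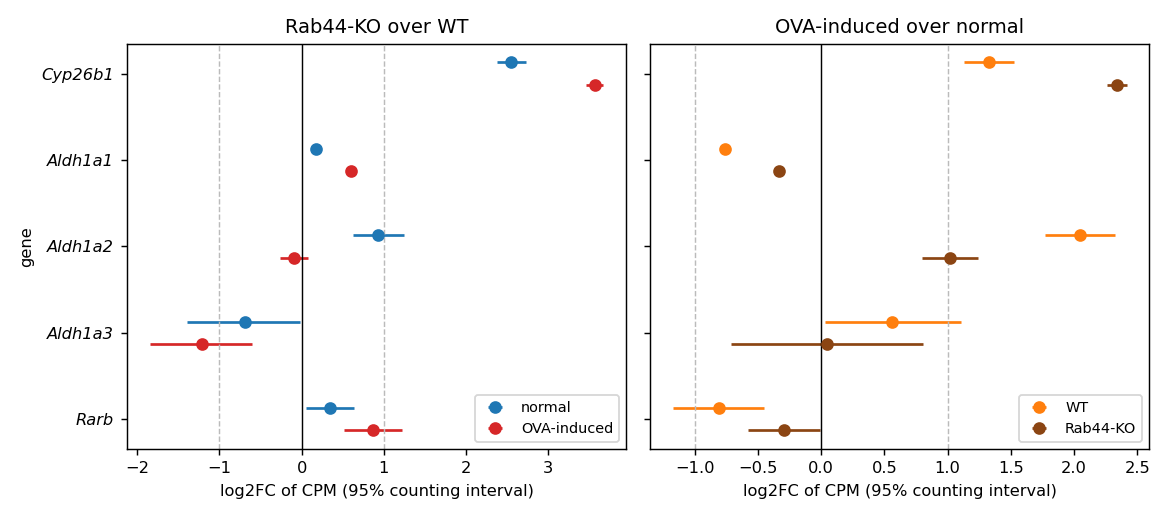
Log2FC of CPM with exact 95% counting intervals for the 5 members that passed the count minimum in every comparison, Rab44-KO over WT on the left and OVA-induced over normal on the right; dashed lines mark a 2-fold difference. Cyp26b1 lies beyond 2-fold in all 4 comparisons, and Aldh1a1 and Rarb lie above 0 on the left and below 0 on the right.

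Under normal conditions 5 of the 9 members passed the count minimum and 1 was called, Cyp26b1, higher in Rab44-KO, where 4.77% of all 18718 genes tested were called and 2.77% were called higher. Under OVA-induced conditions 6 passed and 3 were called, Cyp26b1 higher and Aldh1a3 and Crabp2 lower, where 15.7% of 19259 genes were called, 8.4% higher and 7.34% lower. In the OVA response of WT lungs 6 passed and 3 were called, all higher (Cyp26b1, Aldh1a2 and Crabp2), where 14.2% of 19023 genes were called, 8.99% higher and 5.2% lower. In that of Rab44-KO lungs 5 passed and 2 were called, both higher (Cyp26b1 and Aldh1a2), where 10.3% of 19073 genes were called, 6.44% higher and 3.85% lower. Under a stricter call, with the whole counting interval beyond 2-fold, Cyp26b1 was the only member left for genotype under normal conditions (0.374% of all genes) and for OVA in Rab44-KO lungs (2.68%). Crabp2 joined it for genotype under OVA-induced conditions (4.9%), and Crabp2 and Aldh1a2 did for OVA in WT lungs (5.33%). Crabp2 passed the count minimum only through OVA-induced WT, so its calls had a fixed direction. With so few members, and with the list drawn up in view of the genotype differences, these shares are not read against the background. The comparisons share libraries in pairs and are not independent of each other.

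The order of the members by TPM changed with genotype. In normal WT it ran from Aldh1a1 at 1357 TPM to Aldh1a2 at 7.49, Rarb at 5.93, Cyp26b1 at 2.98 and Aldh1a3 at 1.86, and the counting intervals of Aldh1a2 and Rarb overlapped. In normal Rab44-KO Cyp26b1 took the second place at 17.8 TPM, ahead of Aldh1a2 at 14.6, Rarb at 7.69 and Aldh1a3 at 1.17, with no overlap between neighbours. In OVA-induced WT Aldh1a2 was second at 27.4 TPM and Cyp26b1 came next at 6.60. Below them Rarb at 2.99, Crabp2 at 2.66 and Aldh1a3 at 2.43 overlapped. In OVA-induced Rab44-KO Cyp26b1 was again second, at 98.0 TPM, ahead of Aldh1a2 at 32.2, Rarb at 6.85 and Aldh1a3 at 1.31. Cyp26b1 thus stood above Aldh1a2 and Rarb in both Rab44-KO libraries, and below Aldh1a2 in both WT libraries.

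The genes with patterns nearest to a member were found by the distance between mean-centred log2 CPM over the 4 libraries, among 15608 other genes with at least 50 counts in their highest library. For Cyp26b1 the nearest were Gm40402 (distance 1.41), Lama1, a laminin chain of basement membranes (1.57), and Slc25a34 (1.61). Lama1 had 20 counts in WT and 85 in Rab44-KO under normal conditions and 43 in WT and 152 in Rab44-KO after OVA, and its genotype difference was thus large in both conditions as well. For Aldh1a2 the nearest was at 0.0757 (Pbld1) and for Aldh1a3 at 0.0660 (Tfpi2). The distance is not scaled and grows with the range a gene spans, so distances are not compared between members. Aldh1a2 was next nearest to Il1b (0.181), the inflammatory cytokine, and to Cldn15 (0.200). Aldh1a3 was next nearest to Mir703 (0.146) and Gm35624 (0.169). Crabp2 was nearest to Alox12e (1.27), with 5, 9, 67 and 1 counts in the library order used throughout, then to Slc39a2 (1.92) and 4930430E12Rik (2.12). Over 4 libraries many genes can lie close to one another.

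Of 61 other genes listed for the retinoid pathway, 49 passed under normal conditions, 1 was higher in Rab44-KO (Dhrs9) and 1 lower (Rbp2), where 4.77% of all genes were called, and their median log2FC was 0.01 against 0.00 over all genes. Among OVA-induced lungs 51 passed, of which 6 were higher in Rab44-KO (Aox1, Ccr9, Dhrs9, Lrat, Rbp2 and Rbp7) and 3 lower (Bco1, Fabp5 and Stra6l), where 15.7% of all genes were called, with a median of -0.01 against -0.02 over all genes. Neither count sets the list apart from the background. Rbp2, Rbp7 and Bco1 had at most 29 counts in any library. After OVA 4 were higher in WT (Bco2, Dhrs9, Fabp5 and Stra6l), and 5 were higher and 3 lower in Rab44-KO (Dhrs9, Rbp2, Rdh9, Rdh12 and Stra6l against Bco1, Fabp5 and Rbp7). Medians were 0.00 and 0.05. Apart from the genes chosen by the rule, these names were chosen after their values were seen.

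**Figure D5:**
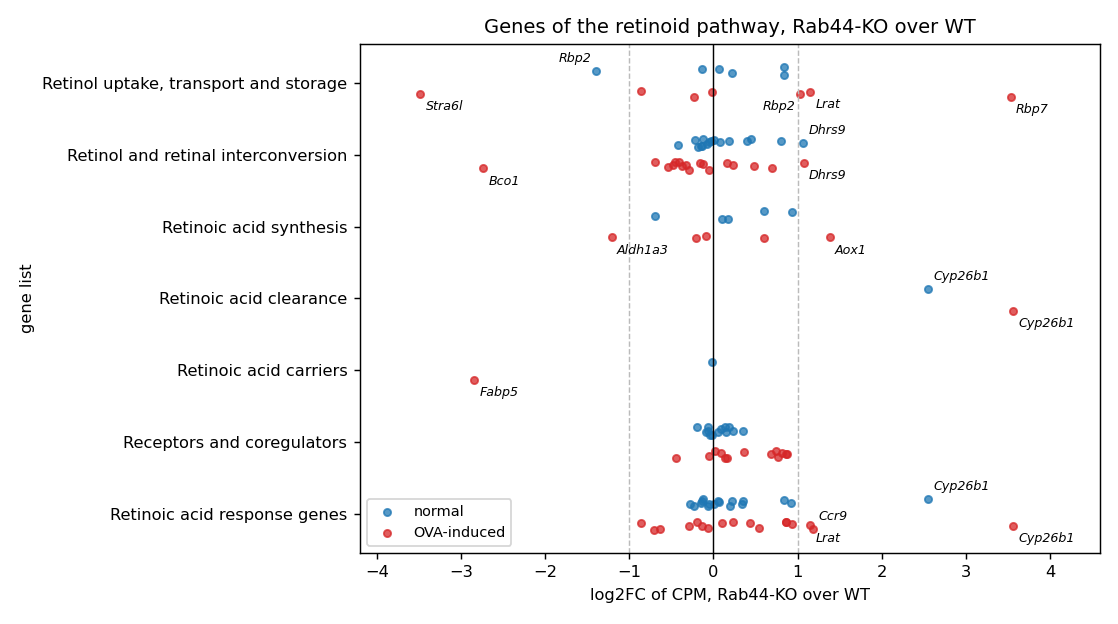
Log2FC of CPM, Rab44-KO over WT, for each gene of 7 retinoid lists that passed the count minimum, under normal (blue) and OVA-induced (red) conditions; dashed lines mark a 2-fold difference, genes beyond it carry their names, and Crabp2 is left out because its fitted value against 0 counts is no bound. Cyp26b1 is the only named gene of the clearance list and lies at 2.55 and 3.56, while receptors and coregulators stay within the dashed lines.

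Among genes for uptake and storage, Lrat, which makes the stored retinyl ester and is a known retinoic acid target, had 2077 counts in WT and 3522 in Rab44-KO under normal conditions and 1354 in WT and 3018 in Rab44-KO after OVA. Both Rab44-KO libraries lay above both WT libraries, with log2FC of 0.84 (0.76 to 0.91) and 1.15 (1.05 to 1.24). Stra6l, a relative of Stra6 that takes up retinol from its carrier, had 8, 6, 157 and 14 counts and was therefore high in OVA-induced WT alone, like Crabp2, with a genotype log2FC of -3.48 (-4.40 to -2.71). Rbp4, the carrier of retinol in blood, had 492, 425, 289 and 248 counts and was lower after OVA in both genotypes (-0.78 and -0.87).

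Of the enzymes that exchange retinol and retinal, Rdh10, the main producer of retinal, had 540, 516, 418 and 386 counts, with genotype intervals that included 0 in both conditions (0.01 and -0.12). Dhrs3, which turns retinal back to retinol, had 1979, 1704, 2642 and 3129 counts and was higher after OVA in both genotypes (0.40 and 0.78). Dhrs9, a dehydrogenase that can act on retinol, had 9, 18, 41 and 87 counts, with a genotype log2FC of 1.06 under normal conditions (-0.16 to 2.41) and 1.07 under OVA-induced conditions (0.52 to 1.65). Aox1, an aldehyde oxidase that can make retinoic acid from retinal, had 1112, 1610, 709 and 1860 counts, higher in Rab44-KO by 0.61 (0.50 to 0.72) and 1.38 (1.26 to 1.51). Lrat, Aox1 and Cyp26b1 all stood higher in both Rab44-KO libraries than in either WT library.

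Fabp5, a fatty acid carrier that can also carry retinoic acid, had 1539 counts in WT and 1441 in Rab44-KO under normal conditions and 5389 in WT and 756 in Rab44-KO after OVA. It was high in OVA-induced WT and low in OVA-induced Rab44-KO, with a genotype log2FC of -2.84 (-2.95 to -2.73) there and -0.02 (-0.13 to 0.08) under normal conditions. Macrophages are a known source of Fabp5, and their alternatively activated markers moved in the direction given beside Crabp2. Their part in the Fabp5 values was not tested. Alveolar macrophage markers were lower in OVA-induced Rab44-KO in 3 of 7 cases (median -0.71), with summed levels of 342, 325, 461 and 274 CPM.

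Of the other receptors, Rara had 903, 823, 1034 and 1104 counts, Rarg 1595, 1422, 1245 and 1205, and Rxra, their partner, 2219, 2017, 2062 and 2327. Their genotype log2FC lay between -0.09 and 0.16 in both conditions. Of 12 receptors and coregulators that passed without Rarb, 0 were called in any of the 4 comparisons, where 4.77, 15.7, 14.2 and 10.3% of all genes were, so nothing is read from that count. Their log2FC had medians of 0.02 and 0.27 for genotype and -0.15 and 0.29 for OVA in WT and Rab44-KO. Of 15 other retinoic acid response genes that passed, 0 were called for genotype under normal conditions (median 0.01) and 2 were higher under OVA-induced conditions, Lrat and Ccr9 (median 0.11). Ccr9, a gut-homing receptor that retinoic acid induces on lymphocytes, had 31, 56, 45 and 103 counts. Their median OVA response was -0.21 for WT lungs and -0.33 for Rab44-KO lungs.

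Genes in the deposited table carry annotation terms, which gave 4 lists chosen after the files were seen. Of 23 genes annotated to retinoic acid receptor signaling that passed without the members, 0 were called under normal conditions and 1 was higher under OVA-induced conditions, Esrrg, an orphan receptor, named after its value was seen. Among 89 genes annotated to the response to retinoic acid, 1 was higher and 1 lower under normal conditions (Tat and Brinp2), and among the 90 that passed in OVA-induced lungs 6 stood higher and 6 lower, beside 4.77% and 15.7% of all genes called. Of 32 genes annotated to the retinol metabolic process that passed under normal conditions, 2 were higher, Cyp1a1, a cytochrome P450 induced through the aryl hydrocarbon receptor, with 67 counts in WT against 3418 in Rab44-KO (log2FC 5.74, 5.40 to 6.12), and Ces1f, a carboxylesterase, with 253 against 646 (1.43, 1.21 to 1.64). In OVA-induced lungs 34 passed, of which 5 were higher (Ces1f, Cyp1a1, Fabp1, Lipe and Lrat) and 3 lower (Bco1, Ces2c and Ces2e). Of the genes annotated to the retinoic acid metabolic process 5 passed under normal conditions and 6 in OVA-induced lungs, with 0 called in either. The genes named from these lists were chosen after their values were seen.

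Longer transcripts had higher genotype log2FC in OVA-induced lungs, which bears on genes of different length. There the median log2FC was -0.38 for the fifth of genes with the shortest transcripts and 0.35 for the fifth with the longest. At the length of each member the running median was 0.06 for Cyp26b1, -0.28 for Aldh1a1, -0.29 for Aldh1a2, -0.06 for Aldh1a3 and -0.12 for Rarb. Relative to that trend Cyp26b1 differed by 3.50, Rarb by 0.99 and Aldh1a1 by 0.88, and Aldh1a3 by -1.15. The Cyp26b1 difference thus kept nearly all of its size. Heart muscle markers also set OVA-induced WT apart, with summed levels of 619.6, 673, 281 and 636 CPM, none at 0, and after OVA 2 of 4 were higher in Rab44-KO (median 1.12). The part of tissue sampling in the member values was not tested. No stretch of 150 bases in a transcript of any member occurred in a transcript of another gene. Shorter or inexact matches, as for trimmed reads, were not searched.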

How the data were processed

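RNA from whole lung was sequenced by the authors (directional kit, 150 bp paired ends), and the table gives gene counts and TPM for 4 libraries, 1 per condition. Per the labels, the authors aligned reads to GRCm38 with HISAT2 and counted them with featureCounts, and used DESeq2. Versions, strand setting and the handling of multi-mapped reads are not given in the sources used here. The deposited counts are raw counts per gene and the deposited TPM values are counts divided by length and scaled by the authors.

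Libraries were scaled with edgeR 4.0.16 TMM (R 4.3.3). The log2FC compares CPM after adding 0.125 counts as a prior, for genes that reached 10 counts in one of both libraries, with exact Clopper-Pearson intervals, and a floor of 3 counts was used for 0. CPM intervals are exact Poisson. With 1 library per condition no model was tested. On simulated Poisson counts with 200 changed genes among 41079, intervals covered 95.6 and 95.3% of true values for genotype (normal, OVA-induced). For OVA (WT, Rab44-KO) they covered 95.2 and 95.6%. Such counts hold no spread between mice, and exact intervals cover them at this rate by design. The simulation therefore checked the calculation only. Alternatives were DESeq2 1.42.0 size factors, total counts, pairwise TMM, TPM, a prior count of 2, other count minimums, a 4-fold call, thinning and, chosen after seeing the data, removal of the trend against transcript length.

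Positions come from GENCODE (GRCm38), because 2.12% of 39405 matched genes start in the deposited table where GRCm38 RefSeq places them. Other genes named are those of the pathway lists with at least 50 counts and an absolute log2FC above 1 for genotype, at most 5 a list, Rara, Rarg, Rxra, Rdh10, Dhrs3, Rbp4 and Fabp5 whatever their values, and for each of Cyp26b1, Crabp2, Aldh1a2 and Aldh1a3 the 3 nearest genes. The members and lists were chosen with earlier results of these data known. Some results that this rule covers are not reported here.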

Additional observations from a re-analysis of the deposited data

Results flagged for a closer look

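Aox1, Fabp5, Rxra and Dhrs3 took opposite directions under the same contrast, with both counting intervals excluding 0. The difference between the contrasts was not tested, since each condition is 1 library. Pathway genes outside the naming rule also changed sign, such as Aldh1a7 after OVA (0.12 in WT, -0.19 in Rab44-KO), and are not described here. Fabp5, the carrier, was higher after OVA in WT lungs (log2FC 1.80) and lower in Rab44-KO lungs (-1.03). Aox1, the aldehyde oxidase, was lower after OVA in WT (-0.66) and slightly higher in Rab44-KO (0.11). Rxra, the receptor partner, was -0.12 in WT and 0.11 in Rab44-KO. Dhrs3 was -0.14 for Rab44-KO over WT under normal conditions and 0.23 under OVA-induced conditions. Of these only the Fabp5 values lie beyond a 2-fold difference in both directions. The values of Rxra, the Rab44-KO value of Aox1 and the OVA-induced value of Dhrs3 are no larger than the shift of all genes when TPM replaces CPM, to a median of -0.16 in the OVA response of WT, 0.11 in that of Rab44-KO and 0.29 for genotype in OVA-induced lungs.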

How the results depend on the processing

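Of the 22 member log2FC values, 22 stayed within their interval with DESeq2 size factors, pairwise TMM, a prior count of 2 and thinning, 20 with total counts, 18 with the length trend removed and 14 with TPM; the sign changed in 1 value under each of the last 2, Aldh1a2 for genotype in OVA-induced lungs. The largest move with a prior count of 2 was 3.88, for Crabp2 by genotype in OVA-induced lungs. It stayed within its interval because that interval has no lower bound. The difference of the OVA response between genotypes moved for Aldh1a1 to 0.73 with TPM and 0.48 with total counts. For Cyp26b1 it moved to 1.33 with TPM. Members called in the OVA response of Rab44-KO were 1 with a log2FC limit of 2, 1 when the whole interval had to lie beyond 2-fold and 6 with a count minimum of 1, the added genes holding 0 to 4 counts; in normal lungs the count minimum of 1 gave 2. No replicate could be left out. No paired analysis was possible because each condition is 1 library and no result comes from a test. Depth limits Cyp26a1, Stra6, Crabp1 and Crabp2, which no comparison here can resolve beyond the Crabp2 values and the Crabp1 interval for OVA in WT.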
